A study of Mus musculus with 42 samples.

Results

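The circadian clock drives many genes through a few transcription factors, and 7 of them are described here in the mouse retina: *Dbp*, *Tef*, *Hlf*, *Nfil3*, *Ciart*, *Bhlhe40* and *Bhlhe41*. They were chosen by name from the 25700 genes of the deposited table, and all 7 were found, carried signal in every retina and passed the filter on low values in each comparison. RNA was sequenced from 42 retinas, 1 per C57BL/6J mouse, in 7 groups of 6. The group names give oxygen, time and place. Normoxia stands for mice kept at 21% oxygen for 11 weeks at 400 m. In 07-06h-ZH the mice had 7% oxygen for 6 h, and 14-06h-ZH, 14-48h-ZH and 14-11w-ZH had 14% oxygen for 6 h, 48 h and 11 weeks, all at normal pressure at 400 m with 14 h of light and 10 h of dark. Mice of 14-48h-JFJ and 14-07w-JFJ spent 48 h and 7 weeks at 3450 m, where the thin air corresponds to about 14% oxygen, with 12 h of light and 12 h of dark. Exposure began at an age of 9.5 weeks in Normoxia and 14-11w-ZH, 10 weeks in 07-06h-ZH, 9 to 11 weeks in 14-06h-ZH and 14-48h-ZH, and 9 weeks at high altitude. Mice exposed for 6 h or 48 h were therefore younger at sampling than their normoxic controls. The time of day at which tissue was taken is not given in the sources used here.

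In the clock, CLOCK and ARNTL (BMAL1) activate genes through E-box sequences, and PER, CRY and other repressors hold them back in a daily rhythm. *Dbp*, *Tef* and *Hlf* encode the PAR bZIP factors, output activators that bind D-box sequences, and *Nfil3* (E4BP4) encodes a repressor of the same D-boxes. *Ciart* (CHRONO) encodes a repressor of CLOCK and ARNTL. *Bhlhe40* (DEC1) and *Bhlhe41* (DEC2) encode related repressors that compete for E-boxes, and *BHLHE40* is also known as a target of the hypoxia-inducible factor (HIF) in human cells. The retina holds a clock of its own, which tunes visual sensitivity, dopamine release and melatonin synthesis over the day. In the deposited annotation (GRCm38) *Dbp* lies at chr7:45705088-45710203 (plus strand), *Tef* at chr15:81802421-81826861 (plus), *Hlf* at chr11:90336536-90390895 (minus) and *Nfil3* at chr13:52967209-52981073 (minus). *Ciart* lies at chr3:95878503-95882251 (minus), *Bhlhe40* at chr6:108660629-108666925 (plus) and *Bhlhe41* at chr6:145858243-145865558 (minus).

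E-box sequences of the form CACGTG stand in the promoters of 3 of the 6 genes with an entry in the RefSeq promoter table (GRCm38.p6). They are shown here because CLOCK and ARNTL activate genes through E-boxes. The windows run from 250 bases before to 50 bases after the start site, and CACGTG, which reads the same on both strands, is printed in capitals. At least 1 CACGTG was found in 7.15% of all 32851 windows, and at least 3 in 0.0883%. The *Ciart* window on chromosome 3 (minus strand) has 3, which begin 116, 58 and 44 bases before the start site and all lie in the stretch chr3:95882255-95882356. *Bhlhe41* (chr6:145865556-145865585, minus strand) has 1, and each of the 2 annotated starts of *Tef* (chr15:81802534-81802563 and chr15:81811264-81811293, plus strand) has 1.
Ciart: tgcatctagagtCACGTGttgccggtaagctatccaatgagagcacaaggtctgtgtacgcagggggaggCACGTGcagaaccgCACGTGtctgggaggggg
Bhlhe41: tggtacgttccgCACGTGagctgggtgctg
Tef, upstream start: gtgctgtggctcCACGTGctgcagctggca
Tef, downstream start: cacctggcccagCACGTGtctacatcgttt
The windows of *Dbp*, *Hlf* and *Nfil3* do not hold CACGTG. Other forms of the E-box, and bases outside the windows, were not searched. None of the windows of these 6 genes holds a D-box, TTATGTAA or TTACGTAA on either strand, which occurs in 1.06% of all windows. The core of the HIF-binding element, ACGTG or GCGTG on either strand, was found in 5 of the 6, all but *Nfil3*, and in 43.8% of all windows. A CACGTG counts there as an overlapping match on each strand. These are matches of letters and not measured binding. *Bhlhe40* has no entry.

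Levels are given as FPKM, read pairs scaled to gene length and library size, which can be compared between genes. In the normoxic retina *Tef* was the most abundant of the 7, from 193 to 211 FPKM (median 203). *Hlf* ranged from 101.7 to 111.7 FPKM (median 104.9) and *Dbp* from 85.1 to 99.9 FPKM (median 91.1), so the PAR bZIP genes lay above all other members. *Bhlhe41* ranged from 48.3 to 53.9 FPKM (median 49.1) and *Bhlhe40* from 34.8 to 40.2 FPKM (median 36.5). The repressor genes *Ciart*, at 11.7 to 14.3 FPKM (median 14.0), and *Nfil3*, at 6.75 to 8.24 FPKM (median 7.50), were the lowest. The ranges of the 7 genes did not overlap, and those of *Hlf* and *Dbp* came closest to each other.

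**Figure D1:**
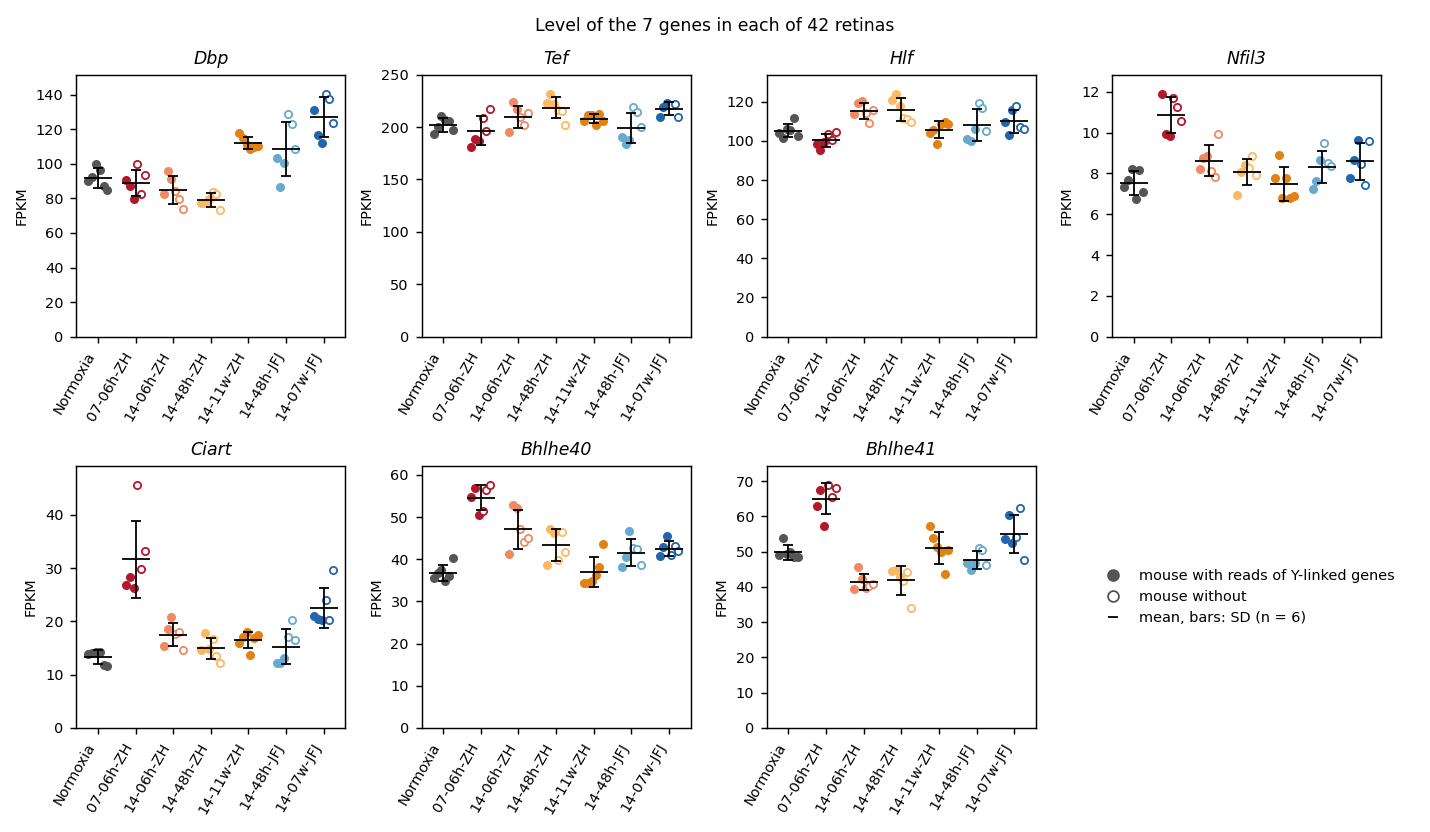
FPKM of the 7 genes in each mouse (points), by group on the x axis, with mean and SD (n = 6). Filled points are mice with reads of Y-linked genes. *Ciart*, *Nfil3*, *Bhlhe40* and *Bhlhe41* are highest in 07-06h-ZH, *Dbp* in 14-07w-JFJ, and the means of *Tef* and *Hlf* span 1.11 and 1.16 times from lowest to highest.

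The libraries hold 13986520 to 33595709 reads in genes where these could be recovered, in 36 of 42. Rod markers (8 genes), which define the tissue, had mean levels between 10.7 and 10.9 on the log2 FPKM scale in all 7 groups. Retinas at high altitude were isolated without a microscope, and the mean log2 FPKM of 12 pigment cell markers was 3.47 in 14-48h-JFJ and 3.78 in 14-07w-JFJ, against 2.13 in Normoxia, 3.12 at 7% oxygen and 1.78, 1.14 and 1.34 after 6 h, 48 h and 11 weeks at 14% oxygen. All 12 markers were detected in each group. Other marker lists also moved between groups (mean log2 FPKM). Mueller glia markers (5 genes) were at 6.98 in Normoxia, 6.86 at 7% oxygen and 7.09 and 7.18 after 6 h and 48 h at 14% oxygen, and red blood cell markers (5 genes) at 1.56 in Normoxia and 3.63 in 07-06h-ZH. Lens markers (8 genes) were at 2.02 in Normoxia and 4.80 in 14-06h-ZH, cornea and conjunctiva markers (5 genes) at -0.15 and 1.34 in the same groups, and smooth muscle and pericyte markers (6 genes) at 1.57 in Normoxia, 2.56 in 14-48h-JFJ and 2.55 in 14-07w-JFJ. Their part in the results was not tested, other than by the term for the pigment marker level. The codes in the library labels form 5 series. Normoxia shares a series with 14-11w-ZH, 14-06h-ZH shares a series with 14-48h-ZH, and in the other comparisons group and series cannot be told apart. Y-linked genes were read in 6 of 6 mice in Normoxia and 14-11w-ZH, and in 3 of 6 mice in each other group. A change in a whole retina can come from RNA per cell or from the share of cells of a type, which cannot be told apart here. A gene passed the test where the p-value of limma on log2(FPKM + 0.1), adjusted by Benjamini-Hochberg over all genes tested, did not exceed 0.05, and it was called where the log2 fold change also reached 1 in size. Over the 10 comparisons 27 of 70 tests of a member passed. Of all genes, 1.54% (14-07w-JFJ over 14-11w-ZH) to 45.5% (07-06h-ZH over 14-06h-ZH) passed in a single comparison. Among the 27 member results, 17 passed under each alternative processing tried.

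After 6 h at 7% oxygen the 4 repressor genes rose and the PAR bZIP genes did not pass the test. *Ciart* ranged from 26.3 to 45.5 FPKM (median 29.1), and each of the 6 retinas was above the highest normoxic one. The mean was 2.38 times that of Normoxia, and the log2 fold change of 1.23 ± 0.11 (SE, adjusted p = 4.53e-07) was the only one of a member that reached 1 in size in the 10 comparisons. The mean in 07-06h-ZH was 27.1 FPKM in the 3 mice with reads of Y-linked genes and 36.2 FPKM in the 3 without. All mice of Normoxia (mean 13.3 FPKM) had such reads. Called increases made up 2.87% of all genes tested. *Bhlhe40* ranged from 50.5 to 57.5 FPKM (median 55.6) and rose by 0.57 ± 0.05 (adjusted p = 1.23e-07). *Nfil3* ranged from 9.85 to 11.9 FPKM (median 10.9) and rose by 0.52 ± 0.08 (adjusted p = 3.72e-05). *Bhlhe41* ranged from 57.1 to 68.8 FPKM (median 66.4) and rose by 0.38 ± 0.05 (adjusted p = 1.14e-05). For all 4 genes the ranges of the groups did not overlap, as for 9.34% of genes tested in the upward direction. Passing in either direction was common in this comparison, at 42% of all genes tested, and 18% passed upward. The log2 fold changes of *Dbp* (-0.05 ± 0.06, adjusted p = 0.512), *Tef* (-0.05 ± 0.04, adjusted p = 0.44) and *Hlf* (-0.07 ± 0.04, adjusted p = 0.134) did not pass. *Tef* passed downward, at -0.13 and an adjusted p of 0.0358, in the fit with a term for the level of Y-linked genes. The highest *Ciart* value, 45.5 FPKM in replicate 4, lay apart from the other 5 retinas (26.3 to 33.2 FPKM), and *Ciart* passed without that mouse as well.

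After 6 h at 14% oxygen 3 members rose and 1 fell, and the Bhlhe genes moved in opposite directions. *Bhlhe40* ranged from 41.2 to 52.9 FPKM (median 46.0), above all normoxic retinas, and rose by 0.35 ± 0.06 (adjusted p = 0.000253). *Bhlhe41* ranged from 39.5 to 45.7 FPKM (median 40.5), below all normoxic retinas, and fell by 0.27 on the log2 scale (SE 0.04, adjusted p = 0.000132). *Ciart* ranged from 14.7 to 20.7 FPKM (median 17.8), again without overlap, and rose by 0.39 ± 0.08 (adjusted p = 0.00167). *Hlf* ranged from 109.1 to 120.4 FPKM (median 115.2), with 5 of 6 retinas above all normoxic ones, and rose by 0.13 ± 0.03 (adjusted p = 0.00647). Of all genes tested 34.3% passed, 9.54% upward and 24.8% downward, and the groups did not overlap for 4.4% (higher) and 13.8% (lower). *Nfil3* lay at the threshold, with 0.19 ± 0.07 (adjusted p = 0.0501, above 0.05). It passed with edgeR (0.27, adjusted p = 0.016), DESeq2 (0.27, adjusted p = 0.0124) and median-of-ratios scaling (0.26, adjusted p = 0.012), but not with the Y-linked term (0.19, adjusted p = 0.155). It also passed (adjusted p = 0.0376 to 0.0401) when replicate 5 of 14-06h-ZH or replicate 3 or 5 of Normoxia was left out. The values of *Dbp* (-0.12 ± 0.06, adjusted p = 0.128) and *Tef* (0.05 ± 0.04, adjusted p = 0.318) did not pass. *Dbp* passed (-0.16, adjusted p = 0.0347) without replicate 2 of 14-06h-ZH, and *Tef* passed upward at 0.12 with median-of-ratios scaling and at 0.13 with edgeR and DESeq2.

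The oxygen level at 6 h was compared directly in 07-06h-ZH and 14-06h-ZH, where 4 of 7 members were higher at 7% and 1 was lower. Of all genes tested 45.5% passed, 25.8% upward and 19.7% downward, and groups did not overlap for 14.5% (higher) and 9.76% (lower). *Bhlhe41* had the smallest p, with a log2 fold change of 0.65 ± 0.05 (adjusted p = 7.87e-08) and every retina at 7% (57.1 FPKM and more) above every retina at 14% (45.7 FPKM and less). *Ciart* was higher at 7% by 0.83 ± 0.12 (adjusted p = 6.32e-05), also without overlap. *Nfil3* was higher by 0.33 ± 0.07 (adjusted p = 0.00174) and *Bhlhe40* by 0.22 ± 0.06 (adjusted p = 0.00834). *Hlf* was lower at 7%, by -0.20 ± 0.04 (adjusted p = 0.000389), with 95.5 to 104.8 FPKM against 109.1 to 120.4 FPKM. With a term for the pigment marker level, which was higher at 7%, *Bhlhe40* no longer passed (0.11, adjusted p = 0.105). *Dbp* (0.07 ± 0.07, adjusted p = 0.402) and *Tef* (-0.10 ± 0.05, adjusted p = 0.118) did not pass. *Tef* passed at -0.13 (adjusted p = 0.0422) without replicate 6 of 07-06h-ZH.

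After 48 h at 14% oxygen 3 members were higher and 2 lower than in Normoxia, where 36.2% of all genes tested passed, 9.48% upward and 26.7% downward. *Bhlhe40* ranged from 38.7 to 47.1 FPKM (median 43.9) and was higher by 0.23 ± 0.05 (adjusted p = 0.00282). *Hlf*, at 109.6 to 124.0 FPKM (median 114.8), was higher by 0.14 ± 0.04 (adjusted p = 0.00592), and *Tef*, at 202.3 to 231.6 FPKM (median 219), by 0.11 ± 0.03 (adjusted p = 0.0165). *Tef* missed the threshold with a term for the pigment marker level (adjusted p = 0.0537). *Bhlhe41* ranged from 33.9 to 44.7 FPKM (median 43.5), below all normoxic retinas. It was lower by -0.25 ± 0.06 (adjusted p = 0.00269), but not with a term for the Y-linked level (-0.17, adjusted p = 0.0711) or with edgeR (-0.19, adjusted p = 0.0569). *Dbp* ranged from 73.1 to 83.9 FPKM (median 78.6), also below all normoxic retinas, as 15% of genes tested were, and was lower by -0.22 ± 0.04 (adjusted p = 0.000891). Transcripts of *Dbp* are rich in G and C (61.6%, above 98.0% of genes), and after removal of the trend of fold change with GC content the *Dbp* value was 0.08 (adjusted p = 0.229). Neither *Nfil3* (0.10 ± 0.07, adjusted p = 0.31) nor *Ciart* (0.16 ± 0.09, adjusted p = 0.167) passed, but *Ciart* passed at 0.24 with median-of-ratios scaling and *Nfil3* at 0.23 with edgeR.

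From 6 h to 48 h at 14% oxygen, within 1 code series, 0 of 7 members passed with limma, edgeR or DESeq2, against 1.67% of all genes with limma. At an unadjusted p under 0.05 there was 1 with limma, 2 with edgeR and 3 with DESeq2. The largest difference of a member was that of *Ciart*, -0.23 ± 0.10 (adjusted p = 0.265), with 12.2 to 17.8 FPKM at 48 h.

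After 11 weeks at 14% oxygen *Dbp* and *Ciart* were higher than in Normoxia, within the same code series, and the Bhlhe genes, *Nfil3*, *Tef* and *Hlf* did not pass. *Dbp* ranged from 108.7 to 117.8 FPKM (median 110.7), above all normoxic retinas (99.9 FPKM at most), and was higher by 0.29 ± 0.04 (adjusted p = 0.00298). *Ciart* ranged from 13.7 to 17.9 FPKM (median 16.9), with 5 of 6 retinas above all normoxic ones, and was higher by 0.31 ± 0.07 (adjusted p = 0.0319). In this comparison 3.96% of all genes tested passed and 2.02% passed upward, 1.51% being higher without overlap. The *Dbp* result passed under each alternative, GC correction included. *Ciart* did not pass with edgeR (adjusted p = 0.193) or DESeq2 (adjusted p = 0.116), which held 5 mice of 14-11w-ZH and 4 of Normoxia. With limma it missed the threshold (adjusted p = 0.0562 to 0.0796) when any 1 of replicates 1, 2, 3, 5 and 6 of 14-11w-ZH or 5 and 6 of Normoxia was left out. *Bhlhe40* had a mean of 36.9 ± 3.53 FPKM (SD, n = 6) against 36.8 ± 1.91 FPKM in Normoxia, and *Bhlhe41* 51.0 ± 4.57 FPKM against 49.8 ± 2.07 FPKM.

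**Figure D2:**
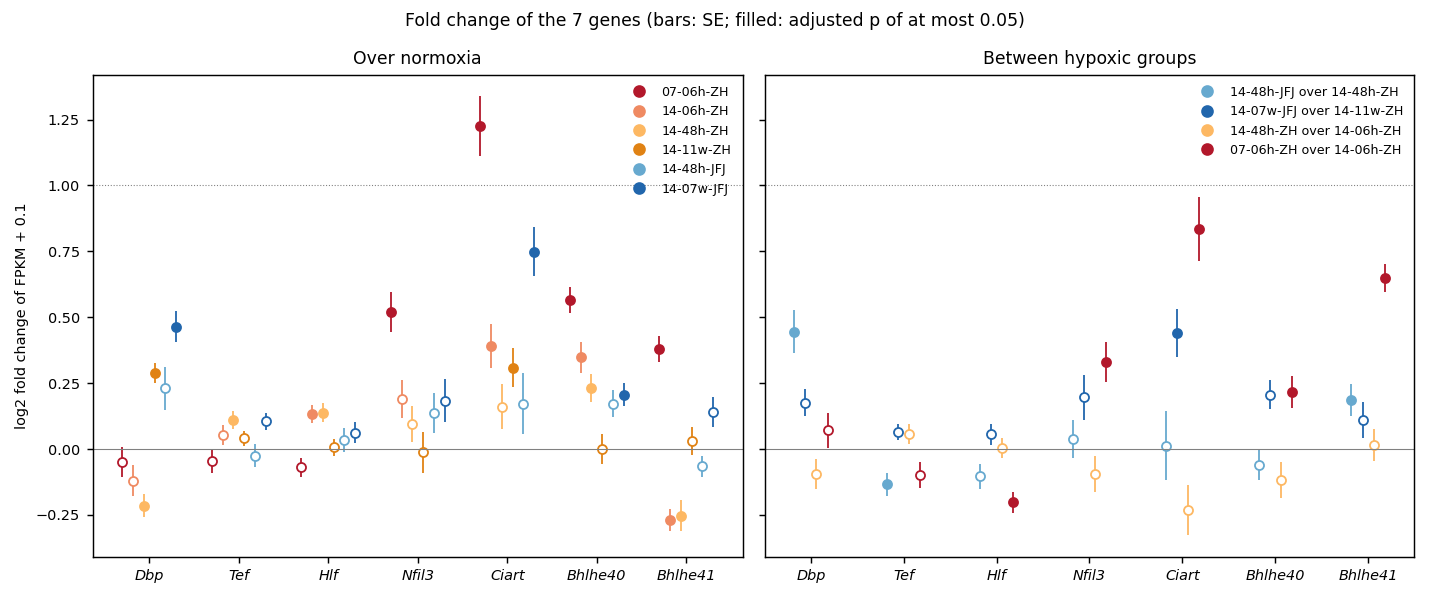
Log2 fold change (y axis) of each of the 7 genes (x axis) with its SE, over Normoxia on the left and between hypoxic groups on the right. Filled points passed the test, and the dotted line marks a log2 fold change of 1, which is exceeded by *Ciart* in 07-06h-ZH only.

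After 48 h at high altitude 0 of 7 members passed against Normoxia with limma, edgeR or DESeq2, where 5.33% of all genes tested passed with limma. At an unadjusted p under 0.05 there were 2 with limma, 2 with edgeR and 3 with DESeq2. *Bhlhe40* ranged from 38.2 to 46.8 FPKM (median 41.6) with a log2 fold change of 0.17 ± 0.05 (adjusted p = 0.0626). *Dbp* ranged widely, from 86.4 to 129.1 FPKM (median 106.1), with 0.23 ± 0.08 (adjusted p = 0.111). *Bhlhe40* passed with normalized counts (adjusted p = 0.0369), and *Dbp* passed in the fit of all 7 groups (adjusted p = 0.0305). Without replicate 2 of 14-48h-JFJ *Dbp* passed at 0.29 (adjusted p = 0.0203), and without replicate 1 or 6 of 14-48h-JFJ or replicate 6 of Normoxia *Bhlhe40* passed (adjusted p = 0.0453 to 0.0488).

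After 7 weeks at high altitude *Dbp*, *Ciart* and *Bhlhe40* were higher than in Normoxia, against 2.04% of all genes that passed and 1.47% that passed upward. *Dbp* reached its highest levels here, 112.1 to 140.5 FPKM (median 127.5), above all normoxic retinas, and was higher by 0.46 ± 0.06 (adjusted p = 0.000633). *Ciart* ranged from 20.2 to 29.6 FPKM (median 20.7), without overlap, and was higher by 0.75 ± 0.09 (adjusted p = 0.000666). *Bhlhe40* ranged from 40.7 to 45.5 FPKM (median 42.4), without overlap, and was higher by 0.21 ± 0.04 (adjusted p = 0.0242). Groups did not overlap in the upward direction for 1.34% of genes tested. The results of *Dbp* and *Ciart* passed under each alternative, while *Bhlhe40* missed the threshold in 7 of them, edgeR (adjusted p = 0.123) and the pigment marker term (adjusted p = 0.0883) among them. It also missed it (adjusted p = 0.0506 to 0.0624) without replicate 2 of 14-07w-JFJ or replicate 4 or 5 of Normoxia. *Tef* (0.10 ± 0.03, adjusted p = 0.0982), *Nfil3* (0.18 ± 0.08, adjusted p = 0.254), *Bhlhe41* (0.14 ± 0.06, adjusted p = 0.218) and *Hlf* (0.06 ± 0.04, adjusted p = 0.436) did not pass. Light cycle, place, age, code series and share of mice with Y-linked reads differ together with altitude, and cannot be told apart from it.

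High altitude was set against 14% oxygen at normal pressure at 48 h, where 39.6% of all genes tested passed, 30.9% upward and 8.66% downward. *Dbp* was higher at altitude by 0.45 ± 0.08 (adjusted p = 0.000539), and the 6 retinas at altitude (86.4 FPKM and more) were above all those of 14-48h-ZH (83.9 FPKM and less). After removal of the GC trend the value for *Dbp* was 0.15 (adjusted p = 0.154). *Bhlhe41* was higher by 0.19 ± 0.06 (adjusted p = 0.0206), with 44.7 to 51.0 FPKM (median 46.7) at altitude and no overlap, as for 15.6% of genes tested. The median log2 fold change of all genes was 0.11 in this comparison, and with median-of-ratios scaling, where that median was 0.02, *Bhlhe41* had a value of 0.08 (adjusted p = 0.281). *Tef* was lower by -0.13 ± 0.04 (adjusted p = 0.0253), with 184.2 to 218.7 FPKM (median 195.3) at altitude. With the pigment marker term *Bhlhe41* (0.27, adjusted p = 0.0862) and *Tef* (-0.03, adjusted p = 0.828) no longer passed, while *Dbp* did (0.66, adjusted p = 0.00165). *Tef* was also lost without replicate 1, 2 or 3 of 14-48h-JFJ or replicate 2 of 14-48h-ZH (adjusted p = 0.0554 to 0.0629). *Hlf* (-0.10 ± 0.05, adjusted p = 0.0977) and *Bhlhe40* (-0.06 ± 0.06, adjusted p = 0.472) did not pass, but both passed downward with median-of-ratios scaling, at -0.21 and -0.16, and *Hlf* passed (adjusted p = 0.0308 and 0.049) without replicate 4 or 5 of 14-48h-JFJ. *Nfil3* (0.04 ± 0.07, adjusted p = 0.713) and *Ciart* (0.01 ± 0.13, adjusted p = 0.952) did not pass.

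In the chronic pair, 14-07w-JFJ against 14-11w-ZH, 1 of 7 members, *Ciart*, passed, against 1.54% of all genes tested and 1.07% upward. Every retina at altitude (20.2 to 29.6 FPKM) was above every retina of 14-11w-ZH (13.7 to 17.9 FPKM), as for 1.34% of genes tested, and *Ciart* was higher by 0.44 ± 0.09 (adjusted p = 0.0302). *Ciart* missed the threshold with the Y-linked term (0.32, adjusted p = 0.128), with a replicate block and without a filter (adjusted p = 0.121). The same held without trend and robust options (adjusted p = 0.0757) and for *Ciart* after GC correction (0.38, adjusted p = 0.0527). It passed with edgeR (adjusted p = 0.0315) and DESeq2 (adjusted p = 0.00614), and with the pigment marker term (0.72, adjusted p = 0.0102). It also missed the threshold (adjusted p = 0.0501 to 0.065) when replicate 1 or 2 of 14-07w-JFJ or any 1 of replicates 1, 2, 4, 5 and 6 of 14-11w-ZH was left out. *Dbp* (0.18 ± 0.05, adjusted p = 0.0907) and *Bhlhe40* (0.21 ± 0.06, adjusted p = 0.0705) did not pass, but *Dbp* did (adjusted p = 0.0388) without replicate 3 of 14-07w-JFJ and *Bhlhe40* (adjusted p = 0.0231) without replicate 6 of 14-11w-ZH. The remaining members had adjusted p-values of 0.27 to 0.537. The exposures lasted 7 and 11 weeks. The difference between the altitude contrast at 48 h and in the chronic groups was tested as such, and 3 of 7 members passed, against 26.5% of all genes tested (19.4% upward and 7.05% downward). Of the alternatives, only other pseudocounts, a replicate block and leaving out each mouse were applied to it. Scaling, GC correction, the marker and Y-linked terms, edgeR and DESeq2 were not. *Dbp* differed by 0.27 ± 0.10 (adjusted p = 0.0433), *Tef* by -0.20 ± 0.05 (adjusted p = 0.0069) and *Bhlhe40* by -0.27 ± 0.08 (adjusted p = 0.0201), each as the 48 h value minus the chronic value. The median over all genes was 0.09. For *Dbp* 15 of the 24 mice, if left out, moved the adjusted p to between 0.0504 and 0.083: replicates 4 to 6 of 14-48h-JFJ, 1 to 3 and 6 of 14-48h-ZH, 2, 3 and 6 of 14-07w-JFJ, and all but 4 of 14-11w-ZH. *Hlf* (-0.16, adjusted p = 0.0649) and *Ciart* (-0.43, adjusted p = 0.0639) passed without replicate 4 or 5 of 14-48h-JFJ or replicate 6 of 14-48h-ZH, and *Hlf* also without replicate 2 of 14-07w-JFJ.

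Since the Bhlhe genes encode repressors of the same sites, the FPKM of *Bhlhe41* was divided by that of *Bhlhe40* in each retina, a measure chosen after the values were seen and given without a test. In Normoxia the ratio ranged from 1.21 to 1.46 (median 1.36), so *Bhlhe41* was the more abundant gene in all 6 retinas. It was lower in mild acute hypoxia, at 0.808 to 0.959 (median 0.885) in 14-06h-ZH and 0.813 to 1.15 (median 0.949) in 14-48h-ZH. In both groups all 6 retinas were below all normoxic ones, and in 14-06h-ZH *Bhlhe40* was the more abundant gene in each retina. For 14-06h-ZH the lack of overlap follows from the single genes, with *Bhlhe40* above and *Bhlhe41* below all normoxic retinas. Both groups share a code series to which Normoxia does not belong. How common such ratios are among other pairs of genes was not tested. At 7% oxygen, where both genes rose, the ratio was 1.13 to 1.34 (median 1.17), above all retinas of 14-06h-ZH and overlapping with Normoxia. After 11 weeks it was 1.14 to 1.66 (median 1.42), after 48 h at altitude 0.999 to 1.22 (median 1.19) and after 7 weeks at altitude 1.14 to 1.45 (median 1.32), all overlapping with Normoxia. The ratio is taken within a library, so a factor that scales all genes of a library cancels.

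**Figure D3:**
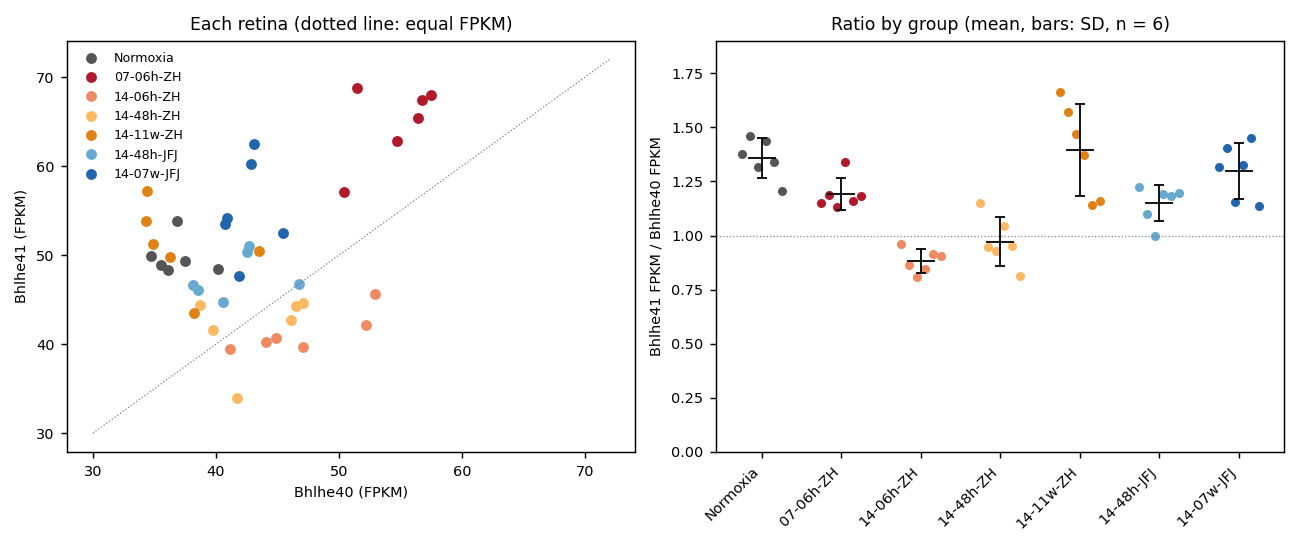
*Bhlhe41* against *Bhlhe40* in FPKM for each retina (left, dotted line at equal FPKM), and the ratio of both by group (right, mean and SD, n = 6, dotted line at 1). The 6 retinas of 14-06h-ZH lie below a ratio of 1 (0.808 to 0.959), and Normoxia lies above it (1.21 to 1.46).

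The groups were then ordered by mean level for each gene. *Dbp* was lowest in 14-48h-ZH (79.1 ± 3.96 FPKM, SD, n = 6) and highest in 14-07w-JFJ (127 ± 11.4 FPKM), 1.61 times as high. The order was not redone after removal of the GC trend, with which *Dbp* in 14-48h-ZH was no longer lower than in Normoxia. *Tef* (1.11 times, from 196 ± 13.9 FPKM in 07-06h-ZH to 218 ± 9.86 FPKM in 14-48h-ZH) and *Hlf* (1.16 times, from 100.3 ± 3.37 FPKM in 07-06h-ZH to 115.9 ± 5.84 FPKM in 14-48h-ZH) had the same lowest and highest groups, and these were also the lowest (6.86) and highest (7.18) groups for the mean log2 FPKM of the Mueller glia markers, whose part was not tested. *Nfil3*, *Ciart*, *Bhlhe40* and *Bhlhe41* were all highest in 07-06h-ZH, and *Ciart* and *Bhlhe40* were lowest in Normoxia, *Nfil3* in 14-11w-ZH and *Bhlhe41* in 14-06h-ZH. *Nfil3* spanned 1.45 times (7.50 ± 0.822 to 10.9 ± 0.885 FPKM), *Bhlhe40* 1.48 times and *Bhlhe41* 1.57 times. Neighbours in these orders overlapped in their ranges in all but 1 case, *Bhlhe41* in 14-48h-JFJ (47.6 ± 2.50 FPKM) over 14-48h-ZH (41.9 ± 4.10 FPKM).

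Within some groups *Ciart* and the PAR bZIP genes split the mice by Y-linked reads. The 3 mice with such reads were replicates 1 to 3 in each of the 5 groups that held both kinds, so sex cannot be told apart from whatever set the replicate numbers. In 14-48h-JFJ *Ciart* was 12.2 to 13.1 FPKM in mice with Y-linked reads and 16.5 to 20.2 FPKM in mice without. *Dbp* was 86.4 to 103.6 FPKM against 108.6 to 129.1 FPKM and *Tef* 184.2 to 190.7 FPKM against 199.8 to 218.7 FPKM. In 07-06h-ZH *Ciart* was 26.3 to 28.3 FPKM against 29.9 to 45.5 FPKM, *Tef* 180.6 to 188.9 FPKM against 196.7 to 216.8 FPKM and *Hlf* 95.5 to 99.4 FPKM against 100.4 to 104.8 FPKM. Values without overlap and lower in mice with Y-linked reads were thus found for 3 of 7 members in each of these 2 groups, against 5.95% and 5.84% of genes. In 14-48h-ZH the direction was the opposite, with *Tef* at 222.2 to 231.6 FPKM in mice with Y-linked reads and 202.3 to 216.3 FPKM in mice without, and *Hlf* at 117.6 to 124.0 FPKM against 109.6 to 111.9 FPKM (7.61% of genes). In 14-06h-ZH and 14-07w-JFJ the values of all 7 members overlapped. This split was seen in the values and not tested.

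Among mice of a group the levels of some pairs of the 7 genes varied together, and others showed little relation. Over deviations of the 42 retinas from their group means, Pearson's r ranged from 0.09 (*Bhlhe40* with *Ciart* and with *Dbp*) to 0.69 (*Tef* with *Hlf*). It was 0.64 for *Dbp* and *Ciart*, 0.61 for *Tef* and *Ciart*, 0.59 for *Dbp* and *Tef*, 0.54 for *Tef* and *Bhlhe41*, 0.50 for *Dbp* and *Bhlhe41*, 0.47 for *Dbp* and *Hlf* and 0.41 for *Hlf* and *Ciart*. For *Bhlhe40* it was 0.29 with *Hlf*, 0.28 with *Tef*, 0.18 with *Nfil3* and 0.17 with *Bhlhe41*. These values are descriptions, since retinas of a group share an exposure and a code series and the deviations of all genes share the library's scaling. Only group means were removed, so the split by Y-linked reads, seen for *Dbp*, *Tef*, *Hlf* and *Ciart* in some groups, remains in the deviations. Its part in these values was not tested. How common such values are over all pairs of genes was not tested. Among the 13288 genes compared, the deviations most like those of *Tef* were those of *Hlf* (r = 0.69), *Itm2a* (r = 0.67) and the clock repressor *Cry1* (r = 0.64). Those most like *Hlf* were *Tef* (r = 0.69), *Cry1* (r = 0.67) and *Magi1* (r = 0.65). *Cry1* had the opposite sign over the levels in all 42 retinas, with r = -0.14 for *Tef* and -0.37 for *Hlf*. Those most like *Dbp* were *Mvb12a*, *Nop53* and *Strn4* (r = 0.66 to 0.67), and those most like *Ciart* were *Fpgs*, *Kcnk4* and *Slc6a7* (r = 0.64 to 0.66). Over the levels in all 42 retinas, *Dbp* was most like *Ndufa7*, *Ndufa13* and *Gm42420* (r = 0.84 to 0.85), *Tef* most like *Hlf* (r = 0.73) and *Kansl3* (r = 0.65), and *Hlf* most like *Unc5c*, *Zhx3* and *Map1b* (r = 0.76 to 0.77). *Bhlhe40* was most like *Foxo3* and *Jmy* (r = 0.86 for both), *Nfil3* most like *Itpk1*, *Tbl2* and *Foxo3* (r = 0.79 to 0.81), *Ciart* most like *Samd7* (r = 0.87), *Zfp395* and *Ccdc51* (r = 0.83 to 0.84), and *Bhlhe41* most like *Lsm14b*, *Repin1* and *Ldb1* (r = 0.89 to 0.90).

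**Figure D4:**
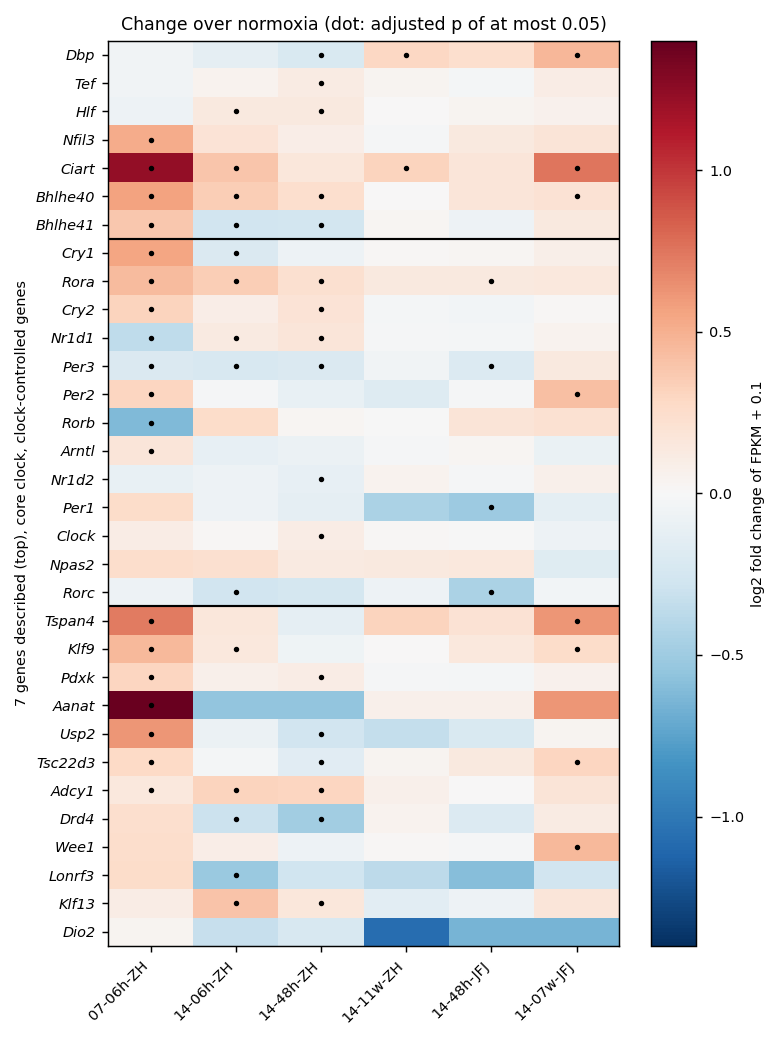
Log2 fold change over Normoxia (colour) of the 7 genes, 13 core clock genes and 12 clock-controlled genes (rows) in the 6 hypoxic groups (columns), with a dot where a gene passed the test. In 07-06h-ZH 8 of 13 core clock and 7 of 12 clock-controlled genes have a dot, and in 14-11w-ZH 0 of either list.

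Among the 6 comparisons with Normoxia, the most core clock genes passed at 7% oxygen. There 5 of 13 core clock genes rose and 3 fell, with a median log2 fold change of 0.17 against -0.03 over all genes, of which 18% rose and 24% fell. The repressor gene *Cry1* rose by 0.55 ± 0.05 (adjusted p = 6.5e-07) and *Cry2* rose by 0.31, while the activating receptor gene *Rora* rose by 0.45 and the repressing receptor gene *Nr1d1* (REV-ERB alpha) fell by 0.36. Of 12 clock-controlled genes 7 rose and 0 fell, among them *Tspan4* by 0.73, *Klf9* by 0.46 and *Aanat*, which encodes the rhythmic enzyme of melatonin synthesis, by 1.38 ± 0.25 (adjusted p = 0.00028). At 14% oxygen for 6 h 2 of 13 core clock genes rose, *Rora* by 0.35 among them, and 3 fell, with *Cry1* at -0.20, where 9.54% of all genes rose and 24.8% fell. With edgeR and with DESeq2 3 rose and 0 fell. After 48 h 4 of 13 rose and 2 fell, where 9.48% of all genes rose and 26.7% fell. Here edgeR and DESeq2 each gave 4 that rose and 0 that fell. After 11 weeks 0 of 13 core clock and 0 of 12 clock-controlled genes passed with limma, 0 and 0 with edgeR and 0 and 2 with DESeq2. At an unadjusted p under 0.05 limma gave 3 core clock genes, of which 2 were lower, and 4 clock-controlled genes, of which 3 were lower. After 7 weeks at altitude *Per2*, a repressor of the core loop, was the 1 core clock gene that passed. *Per2* rose by 0.42 ± 0.06 over Normoxia (adjusted p = 0.00337) and was higher by 0.60 ± 0.06 than in 14-11w-ZH (adjusted p = 0.000108). Clock-controlled genes rose as well in 14-07w-JFJ, 4 of 12, and 5 of 12 were higher than in 14-11w-ZH, against 1.47% and 1.07% of all genes. After 48 h at altitude 1 core clock gene rose and 3 fell, including *Per1* by 0.51, where 2.67% of all genes rose and 2.65% fell. There edgeR gave 0 that rose and 1 that fell, and DESeq2 gave 0 and 3.

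Known HIF targets give the scale of the hypoxic response in the same retinas. At 7% oxygen all 16 rose, with a median log2 fold change of 1.34. At 14% oxygen 14 of 16 rose after 6 h (median 0.51), 9 after 48 h (median 0.23) and 7 after 11 weeks (median 0.25). At high altitude 13 rose after 48 h (median 0.52) and 8 after 7 weeks (median 0.35). In the same order 18%, 9.54%, 9.48%, 2.02%, 2.67% and 1.47% of all genes rose. Every HIF target that passed over Normoxia was higher, and with edgeR the counts at 11 weeks and at 7 weeks were 3 each. For *Egln1*, which encodes a HIF hydroxylase, the log2 fold change was 2.58 after 6 h at 7% oxygen and 1.05 after 6 h at 14% oxygen. Immediate early genes, which light and neuronal activity induce, were lower wherever they passed over Normoxia. Of 13 such genes 9 fell at 7% oxygen, with *Egr1* at -2.06 and *Fos* at -1.19, and at 14% oxygen 5 fell after 6 h, 9 after 48 h and 3 after 11 weeks. In the same order 24%, 24.8%, 26.7% and 1.94% of all genes fell. With edgeR 7, 4, 5 and 1 of 12 fell, and with DESeq2 7, 5, 6 and 1 of 13. At high altitude 3 fell after 48 h (2 with edgeR and 3 with DESeq2), where 2.65% of all genes fell. After 7 weeks 0 passed with limma, edgeR or DESeq2, and 0 had an unadjusted p under 0.05 with any of them. These lists moved beside the members, and their part in the members' values was not tested.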

How the data were processed

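Retinal RNA of 42 mice (6 in each of 7 groups) was sequenced as read pairs. Per the labels and the study's methods, the authors aligned reads with STAR (version not given) to GRCm38 p5. The counting tool is not given in the sources used here. The FPKM values per gene and mouse were made by the authors from those alignments. The second deposited value per gene is a signal, the authors' normalized counts, gene counts scaled by 1 factor per library. In 36 of 42 libraries whole reads were recovered from it (100% of low values whole, tolerance 0.1 of a read), 13986520 to 33595709 reads in genes, median 18437268. Such depth limits the low genes most, and all members were far above the filter. The mapped columns are those of the 42 mice, and 0 columns belong to other samples. Columns of the authors' own comparisons were not used.

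A gene was left out where more than 3 mice of a group had 0 FPKM, and log2(FPKM + 0.1) of the 12 mice of a pair was fitted with limma 3.58.1 (R 4.3.3; eBayes with trend and robust), adjusted by Benjamini-Hochberg over all genes tested. FPKM were the unit of the main fit although reads could be recovered, since 6 libraries gave none. The edgeR and DESeq2 fits thus held 4 mice of Normoxia and 5 or 6 of each other group. Fits were tested on simulated data. Alternatives were pseudocounts of 0.01 and 1, other filters, median-of-ratios scaling, normalized counts, all 7 groups in 1 fit, a replicate block, no trend, terms for Y-linked and pigment marker levels, removal of the GC trend, leaving out each mouse, and edgeR 4.0.16 and DESeq2 1.42.0 on recovered reads. The difference of contrasts was refitted only with the other pseudocounts, the replicate block and each mouse left out. Tables and plots were made with Python 3.11.15, pandas 2.3.3 and matplotlib 3.10.9.

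All 7 members are named. Of each list (core clock, clock-controlled, HIF targets, immediate early) at most 4 genes per comparison are named, by smallest p, and for each member the 3 genes with the highest Pearson r among genes with a mean FPKM of at least 1. Some genes under this rule are not reported here. Members and lists were chosen with earlier results of these data known. The labels name 1 retina per mouse, so mice are the replicates.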

Additional observations from a re-analysis of the deposited data

Results flagged for a closer look

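Over 49 sets of 6 retinas (7 genes in 7 groups), 3 held a retina far from the other 5, where chance alone gives about 1 in 20 sets. *Ciart* was at 45.53 FPKM in replicate 4 of 07-06h-ZH, with the others at 26.3 to 33.2 FPKM. *Bhlhe41* was at 53.86 FPKM in replicate 2 of Normoxia, with the others at 48.3 to 49.9 FPKM, and at 33.92 FPKM in replicate 6 of 14-48h-ZH, with the others at 41.6 to 44.7 FPKM.

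The contrast of high altitude with normal pressure differed between 48 h and the chronic groups for 3 members in the limma test of the difference itself, which 26.5% of all genes passed. *Dbp* gave 0.27 (adjusted p = 0.0433), *Tef* -0.20 (adjusted p = 0.0069) and *Bhlhe40* -0.27 (adjusted p = 0.0201), as log2 values at 48 h minus the chronic values.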

How the results depend on the processing

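Of 27 pairwise results that passed, 17 kept their direction and passed under each alternative. The number of members that passed changed by more than 1.5 times in 4 comparisons. For 14-11w-ZH over Normoxia it fell from 2 to 1 (*Ciart* lost) without a filter, with all 7 groups in 1 fit, with the replicate block, without trend and robust options, with the pigment marker term, and with edgeR and DESeq2. For 14-48h-JFJ over Normoxia it rose from 0 to 1 with a mean FPKM of at least 1, with normalized counts and with all 7 groups. For 14-48h-JFJ over 14-48h-ZH it fell from 3 to 1 without a filter and with the pigment marker term. For 14-07w-JFJ over 14-11w-ZH it fell from 1 to 0 without a filter, with the replicate block, without trend and robust options, with the Y-linked term and after GC correction, and rose to 2 with all 7 groups. The cause was not tested. With each mouse left out in turn the counts ranged from 4 to 4, 4 to 5, 5 to 5, 1 to 2, 0 to 1 and 2 to 3 for the 6 groups over Normoxia, in the order 07-06h-ZH, 14-06h-ZH, 14-48h-ZH, 14-11w-ZH, 14-48h-JFJ and 14-07w-JFJ. They ranged from 2 to 4 for high altitude over normal pressure at 48 h, 0 to 2 in the chronic pair, 0 to 0 from 6 h to 48 h, 5 to 6 for 7% over 14% oxygen, and 2 to 4 for the difference of contrasts.

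In no comparison were all 6 same-numbered pairs above a correlation of 0.1 (1 to 4 of 6 were, with medians of -0.06 to 0.27), and 0 to 2 of 6 mice matched best to their own number, so the numbers are not taken as pairs. In 5 groups numbers 1 to 3 are also the mice with Y-linked reads. With a replicate block the pairwise count stayed at 27 with 4 calls changed. *Dbp* in 14-06h-ZH (-0.12, adjusted p = 0.0421) and *Ciart* in 14-48h-ZH (0.16, adjusted p = 0.0359) were gained over Normoxia. *Ciart* was lost in 14-11w-ZH over Normoxia (adjusted p = 0.0503) and in 14-07w-JFJ over 14-11w-ZH (adjusted p = 0.0509).

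A reversed sign under an alternative was found for 1 result that had passed, *Dbp* in 14-48h-ZH over Normoxia (0.0776 after GC correction, cause not tested). The other reversals were of log2 values that had not passed. GC correction gave *Dbp* 0.13 in 14-06h-ZH over Normoxia and -0.19 in 07-06h-ZH over 14-06h-ZH, where the pigment marker term, edgeR and DESeq2 gave -0.0198, -0.0275 and -0.0326. In 14-11w-ZH over Normoxia median-of-ratios scaling and GC correction gave *Hlf* -0.0024 and -0.00858. There *Nfil3* was 0.00652 with the pigment marker term, 0.0365 with edgeR and 0.0356 with DESeq2, *Bhlhe41* was -0.0241 and -0.0261 with edgeR and DESeq2, and *Bhlhe40* was -0.00807 with median-of-ratios scaling, -0.00484 with normalized counts, -0.0097 after GC correction and -0.033 with the pigment marker term. In 14-48h-JFJ over Normoxia *Tef* was 0.0111 with the pigment marker term, *Hlf* -0.0399 with the Y-linked term and -0.00268 after GC correction, and *Ciart* -0.0787 with the Y-linked term. In 14-48h-JFJ over 14-48h-ZH median-of-ratios scaling, normalized counts, GC correction, edgeR and DESeq2 gave *Nfil3* -0.0619, -0.0417, -0.0868, -0.0917 and -0.0956, and *Ciart* -0.0890, -0.0683, -0.0970, -0.0960 and -0.103. *Bhlhe41* in the chronic pair was -0.0277 with the pigment marker term. With 1 mouse left out, 8 values that had not passed changed sign. In 14-11w-ZH over Normoxia they ranged from -0.00504 to 0.0262 (*Hlf*), -0.0619 to 0.0137 (*Nfil3*), -0.0476 to 0.0261 (*Bhlhe40*) and -0.00346 to 0.0751 (*Bhlhe41*). For high altitude over normal pressure at 48 h they ranged from -0.00298 to 0.0777 (*Nfil3*) and -0.0744 to 0.0718 (*Ciart*), and from 6 h to 48 h from -0.0151 to 0.0205 (*Hlf*) and -0.00343 to 0.0757 (*Bhlhe41*).

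Median-of-ratios scaling moved the share of passing genes that were higher, over all genes, from 27.8% to 47% in 14-06h-ZH, 26.2% to 50% in 14-48h-ZH, 51% to 40.4% in 14-11w-ZH, 50.2% to 35.1% in 14-48h-JFJ and 71.8% to 50% in 14-07w-JFJ over Normoxia. It moved from 78.1% to 50.3% for high altitude over normal pressure at 48 h, 69.6% to 54% in the chronic pair and 44.3% to 55.7% from 6 h to 48 h. Over all genes, fewer passed with edgeR on recovered reads than with limma in each comparison with Normoxia, and by more than 1.5 times in 3 of them, 128 against 676 in 14-11w-ZH, 464 against 911 in 14-48h-JFJ and 160 against 347 in 14-07w-JFJ. Those edgeR fits held 4 mice of Normoxia and 5 or 6 of the other group, against 6 and 6 with limma. Tool and number of mice cannot be told apart here.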
